A study of Mus musculus with 60 samples.

Results

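For 304 mouse genes, a lower-intensity probe set read less lung signal after inhaled SPIO nanoparticles than after sham exposure at every time sampled, while the gene's brightest probe set mostly did not. These 345 probe sets are described here. They were chosen by 2 steps. Of the 34945 probe sets with a single gene symbol, 18193 were the highest-mean probe set of their gene over the 60 arrays (the main probe set), and 16752, in 9010 genes, were not (the secondary probe sets). Members were the secondary probe sets whose mean log2 value in SPIO nanoparticle exposed mice was lower than in time-matched sham controls by at least 0.4 at all 6 times, 2.06% of all secondary probe sets. The genes Nipbl, Smarca5, Tmem30a, Phactr2, Sp4, Mettl16, Wdcp and Rufy2 were left out by the rule. None of their 19 secondary probe sets met the cut, although 4 of their main probe sets did. No secondary probe set was higher by 0.4 at all 6 times. Among main probe sets, 22 of 18193 (0.121%) were lower and 3 were higher by that cut.

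A probe set is a group of short oligonucleotides that match a stretch of a transcript, and its summarised intensity stands for the amount of labelled RNA that carries the stretch. Many genes have several probe sets, drawn from different cDNA and EST sequences. They can lie in different exons, in an intron, or before different poly-A sites, so they can read different transcripts of a gene or different parts of the same transcript. The labelled RNA was made from an oligo-dT primer, which starts copying at the poly-A tail. Sequences near the tail are therefore copied first and sequences far from it last. The probe sequences and their places in the transcripts were not used here.

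The mice are labelled as male Balb/c mice. They breathed either an aerosol of SPIO nanoparticles (superparamagnetic iron oxide) or a particle-free, humidified helium-oxygen atmosphere (sham control, CON), each for 4 h. The authors calculated a total inhaled mass of 365 µg per SPIO mouse, which is not the mass deposited in the lung. The right diaphragmatic lung lobe was taken at 0, 6, 24, 48, 96 and 168 h after exposure from 5 mice per group, with 1 array per mouse. The authors kept mice assigned to 168 h in metabolism cages after SPIO exposure, on a liquid diet begun before placement. They do not say whether the sham mice of that time were kept likewise. At 168 h, housing and diet therefore cannot be told apart from time, and possibly not from the arm. The labels name no mutation or transgene in either arm. Whole lobe RNA was measured, so fewer cells of a type and less RNA per cell cannot be told apart.

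Values are log2 intensities, and differences are SPIO minus sham on the log2 scale. A standard error (SE) is given beside differences averaged over the 6 times, from limma with 30 arrays per arm. Array medians ran from 5.53 to 5.64. Alveolar type 2 marker genes averaged between 13.7 and 13.9 in every array of both arms. The library labelled as array 1 of the 0 h sham controls stood apart, with the main probe sets of Xist at 11.9 and Alb at 14.0 against highest values of 6.02 and 11.3 on the other arrays. Array 3 of the 24 h SPIO mice had Eif2s3y at 5.98 against 7.70 or more elsewhere. Xist is transcribed from the inactive X chromosome of females and Eif2s3y lies on the Y chromosome. Xist on the first array and Eif2s3y on the second were thus unlike the male label, while the other gene of each array was not. Eif2s3y on the first was 8.40, against a median of 8.76 on the other arrays. Xist on the second was 5.38, against a median of 5.57. These genes therefore do not settle the sex behind either array. On both arrays, the mean over the 345 members lay within the range of the other 4 arrays of the group (7.61 against 6.97 to 7.77, and 5.93 against 5.73 to 6.67). The mean over the main probe sets of the members' genes lay below that range on both (9.42 against 9.53 to 9.60, and 9.35 against 9.40 to 9.50). Without these arrays 337 secondary probe sets met the cut, 330 of them the same ones.

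The members' own differences chose them and are given as a description. The mean difference over the 6 times had a median of -0.99 over the 345 members, a fold of 1.99, and ran from -2.46 to -0.49. It was -1 or lower for 168 members and -1.5 or lower for 35. The medians over members were -0.67, -0.99, -1.15, -0.75, -1.25 and -1.15 for 0, 6, 24, 48, 96 and 168 h in turn. The weakest medians were thus at 0 h and 48 h. Over all 16752 secondary probe sets the median of the mean difference was 0.01. Of all secondary probe sets, 988 had a mean difference of -0.4 or lower and 26 had one of 0.4 or higher, so the large differences lay almost entirely on the lower side. Main probe sets were more even, with 171 at -0.4 or lower and 98 at 0.4 or higher.

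The main probe sets of the same 304 genes had a median mean difference of 0.01, with quartiles of -0.08 and 0.08. At single times their median ran from -0.06 to 0.05. Their differences lay within 0.2 of 0 in 262 genes (86.2%), against 89.9% of all main probe sets on the array. They were -0.4 or lower in 13 genes and 0.4 or higher in 0. In all 345 pairs the member's difference was below that of its main probe set, with a median gap of -0.96. In 342 pairs the member's mean difference lay below the 95% confidence interval of its main probe set's difference. The other 3 pairs were Myh6, Ttn and Thbs1. Myh6 and Ttn encode muscle proteins, and their main probe sets varied widely between arrays of a group, with SEs of 0.72 and 0.53. Since the pairs were chosen by one side of this comparison, the gap carries no test.

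By limma over all 45037 probe sets, 60 of the 304 main probe sets (19.7%) were called lower over the mean of the 6 times, where 10% of all probe sets were called lower. In the other direction 66 (21.7%) were called higher, where 15.2% of all were. The remaining 178 passed in neither direction. At the single times, from 0 to 168 h in turn, the main probe sets called lower numbered 13, 4, 37, 8, 16 and 13 of 304, where 1.27%, 1.65%, 5.45%, 1.94%, 4.00% and 2.94% of all probe sets were. Those called higher numbered 4, 2, 45, 28, 1 and 3, where 1.36%, 0.617%, 10.9%, 5.41%, 0.953% and 0.564% of all were. For the main probe sets of the 30 leading members, 29 in number, the difference varied among the 6 times in 0 cases by limma's interaction F-test, against 3.69% of all probe sets. With a fold minimum of 1.5 only 4 main probe sets were called lower over the mean of the 6 times. The members themselves were called lower in 138, 265, 335, 215, 328 and 309 cases in the same order. The rule fixed those counts through the same contrast, and nothing is read from them.

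Averaged over the 345 members, the arrays of the arms hardly met. The rule chose the members by these same arrays, so the distance between the arms follows from it and is only described. The mean over members was 7.55 ± 0.33 (SD, n = 5) in sham and 6.80 ± 0.12 in SPIO mice at 0 h. At 6 h the sham arrays averaged 7.46 ± 0.15 and the SPIO arrays 6.44 ± 0.35. The 24 h groups followed with 7.50 ± 0.22 in sham against 6.31 ± 0.44, and the 48 h groups with 7.34 ± 0.38 against 6.52 ± 0.22. At 96 h it was 7.49 ± 0.24 in sham and 6.22 ± 0.39 in SPIO mice, while the 168 h groups stood at 7.46 ± 0.23 against 6.26 ± 0.28. Over all times the 30 sham arrays ran from 6.95 to 7.80 and the 30 SPIO arrays from 5.603 to 6.98. The sham level therefore stayed near the same value through the week, and the arms overlapped by a narrow margin. At single times the arms did not overlap except at 0 h, where the highest SPIO array, 6.98, passed the lowest sham array, 6.97. The mean over the 304 main probe sets ran from 9.33 to 9.60 in sham and from 9.27 to 9.56 in SPIO arrays.

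All 30 SPIO arrays were below all 30 sham arrays for 34 of the 345 members. Over the whole array 40 probe sets (0.0888%) did so, and 0 did the opposite. Within single times, from 0 to 168 h in turn, the 5 SPIO arrays were all below the 5 sham arrays for 118, 279, 272, 171, 292 and 320 members, and for 1.53%, 2.56%, 2.63%, 1.58%, 3.49% and 3.44% of all probe sets. The groups did not overlap at any of the 6 times for 78 members, and overlapped at every time for 6. Over the whole array 90 probe sets (0.20%) were below at every one of the 6 times. These counts too follow from the rule.

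The lowest of all was Zfp800 (probe set 1437581_at), a zinc finger gene. Its 30 sham arrays ran from 7.16 through a median of 7.75 to 8.20, and its 30 SPIO arrays from 3.98 through 5.42 to 6.12. No SPIO array reached the lowest sham array. The difference averaged -2.46 (SE 0.10) and was strongest at 24 h, at -3.01. Unlike that of most leading genes, its main probe set, 1456791_at, was lower as well, by -0.77 (SE 0.07), and between -0.93 and -0.55 at single times. Those of the leading genes Malat1 (-0.79), Prrc2c (-0.68) and Slfn5 (-0.51) were lower too. Another probe set of Zfp800, 1447875_x_at, differed by -0.70. The other 4 lay between -0.20 and 0.00, so the 7 probe sets of the gene ranged from no visible difference to the largest on the list.

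Utrn encodes utrophin, a large protein that ties the actin cytoskeleton to the membrane. Its member, 1426892_at, had the largest gap to a main probe set of all 345. At 0 h the 5 sham arrays read 8.95, 9.20, 9.04, 9.13 and 7.96 and the 5 SPIO arrays 7.54, 6.83, 7.48, 7.13 and 7.36. The highest SPIO array was thus below the lowest sham array already at the end of exposure. Over all times sham arrays ran from 7.96 through 8.98 to 9.26, and SPIO arrays from 4.51 through 6.72 to 7.54. The main probe set, 1452222_at, had the same median of 11.41 in both arms and differed by 0.01 (SE 0.03). The gap between the probe sets was -2.22.

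Apc encodes the tumour suppressor that takes part in breaking down β-catenin. Its member, 1420957_at, ran from 5.73 through 7.03 to 7.67 in sham and from 3.83 through 4.85 to 5.71 in SPIO arrays. The difference averaged -1.98 (SE 0.10). Its main probe set, 1420956_at, carries the neighbouring number and was drawn from the same accession. That probe set differed by 0.03 (SE 0.03), with all 30 SPIO arrays inside the sham range of 9.68 to 10.3.

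Ralgapa1 encodes a subunit of the complex that inactivates Ral GTPases. The member 1458685_at ran from 5.05 through 5.99 to 6.63 in sham and from 3.09 through 4.00 to 4.67 in SPIO arrays, with no overlap. The main probe set, 1428594_at, differed by -0.02 (SE 0.03) against -1.95 (SE 0.11) for the member. Ralgapa1 has 8 probe sets, 3 of them members. The weakest of those 3, 1431097_at, averaged -0.59 and only just met the cut.

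Usp7 encodes a deubiquitinase that acts on Mdm2 and p53. Its member, 1437118_at, ran from 6.57 through 7.51 to 7.89 in sham and from 4.63 through 5.53 to 6.45 in SPIO arrays, a difference of -1.94 (SE 0.09). Its main probe set differed in the other direction, by 0.13 (SE 0.03). The remaining Usp7 probe sets went in both directions, from -0.17 (1454948_at, SE 0.03) to 0.21 (1454949_at, SE 0.04). Supt16 encodes the large subunit of FACT, the histone chaperone that helps RNA polymerase through nucleosomes. Its member, 1449578_at, ran from 6.86 through 7.81 to 8.26 in sham and from 4.10 through 5.92 to 6.71 in SPIO arrays. The difference was -1.88 (SE 0.11), while the main probe set, 1419741_at, differed by 0.16 (SE 0.03) and shares the member's accession. For both genes the arms of the member did not overlap and the main probe set was slightly higher in SPIO mice.

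The next 24 members by mean difference cover many roles. Among genes that act on chromatin and transcription, Smc1a, a core subunit of cohesin, had 1417831_at at -1.71 and its main probe set at 0.22 (SE 0.03), the opposite sign. Tlk1, a kinase of chromatin assembly factors, differed by -1.72 at the member and 0.01 at the main probe set. Cux1, a homeodomain transcription factor with 9 probe sets, differed by -1.71 and 0.12. Bptf, the reader subunit of the NURF remodelling complex, differed by -1.57 and 0.04, and Arid4b, a subunit of Sin3 histone deacetylase complexes, by -1.65 and -0.10. Zfp664, another zinc finger gene, had -1.78 and -0.02, and Tnrc18 had -1.57 and -0.01. In all of these the member differed by more than 1.5 and the main probe set by 0.22 at most.

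Genes for RNA-binding proteins and RNAs formed another part of these 24. Hdlbp encodes vigilin, an RNA-binding protein, and has 2 members, at -1.73 and -1.69, beside a main probe set at -0.00 (SE 0.04). Dhx29, an RNA helicase of translation initiation, differed by -1.68 at the member and 0.09 at the main probe set. Gemin5, which binds small nuclear RNAs for the SMN complex, differed by -1.64 and 0.17. R3hdm1, which has an R3H domain, had -1.54 and 0.11. Prrc2c differed by -1.58 at the member and by -0.68 (SE 0.08) at the main probe set, so both read less signal. Malat1, a nuclear noncoding RNA, had members and other probe sets at many sizes of difference.

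Malat1 has 7 probe sets. Members were 1427285_s_at at -1.85 (SE 0.13) and 1452378_at at -1.51 (SE 0.13). The 3 brightest were lower on average too, at -0.79 for the main probe set, -0.997 for 1418188_a_at and -1.18 for 1438403_s_at, but at their weakest time they differed by only -0.10, -0.11 and -0.22 and so did not meet the cut. The remaining probe sets, 1429060_at and 1436202_at, differed by -0.09 and -0.14. The 7 probe sets thus ran from -1.85 to -0.09.

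The remaining genes of the 24 had various roles. Plec encodes plectin, which links intermediate filaments, and its member differed by -1.55 where the main probe set differed by 0.12. Slmap, a membrane protein of the STRIPAK complex, differed by -1.83 and -0.01. Ccdc141 has 3 members, from -1.77 to -1.27, and a main probe set at -0.18. Spred2, an inhibitor of Ras to ERK signalling, differed by -1.76 at the member and 0.06 at the main probe set, and Plxnc1, a semaphorin receptor, by -1.68 and 0.07. Lrrk1, a leucine-rich repeat kinase, had -1.64 and -0.07. Jcad, a junction protein of endothelial cells, had -1.84 and -0.09. Megf9 had -1.69 and -0.08, and Heatr6 -1.62 and -0.20. Slfn5, of the interferon-inducible Schlafen family, differed by -1.87 at the member and -0.51 (SE 0.07) at the main probe set.

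At the other end, 4 members lay closest to their main probe sets. Ptar1, a prenyltransferase subunit gene, differed by -0.67 (SE 0.09) at the member and -0.53 (SE 0.06) at the main probe set, whose 30 sham arrays ran from 6.22 through 6.76 to 7.28 and SPIO arrays from 5.83 through 6.20 to 6.56. Thbs1, which encodes the matrix protein thrombospondin-1, differed by -0.61 (SE 0.14) and -0.43 (SE 0.14). Ttn, the gene of the sarcomere protein titin, differed by -0.73 (SE 0.25) and -0.46 (SE 0.53), with sham arrays of the member from 3.78 through 5.80 to 7.96 and SPIO arrays from 4.09 through 4.65 to 6.28. Ankhd1, an ankyrin repeat gene, differed by -0.71 (SE 0.07) and -0.34 (SE 0.06). The arms overlapped for the Ptar1, Thbs1 and Ttn members at all 6 times. The other genes whose main probe set averaged -0.4 or lower, besides Zfp800, Slfn5, Malat1, Prrc2c, Ptar1, Thbs1 and Ttn, were Zbtb16, Crebbp, Pkn2, Npr3, Hspa4l and Slc5a3. In 2 of the 304 genes the main probe set itself met the cut at all 6 times.

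The probe sets nearest the cut differed little in their weakest difference, by which they were picked. Just inside were Kif20b 1440924_at, whose weakest difference was -0.40 at 48 h with a mean of -0.82, Ralgapa1 1431097_at, -0.40 at 0 h with a mean of -0.59, and Rhobtb1 1429656_at, -0.40 at 48 h with a mean of -0.68. Just outside were Ehd3 1417236_at, Prkaa2 1429464_at and Rab18 1420899_at, whose weakest differences were all -0.40 after rounding and whose means were -0.54, -0.49 and -0.50. With the cut at -0.3 the members would number 513, and at -0.5 they would number 238.

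Several genes had more than 1 member. There were 269 genes with 1, 29 with 2 and 6 with 3, which were Ccdc141, Msi2, Npnt, Phf3, Ralgapa1 and Xiap. Members of the same gene share its transcripts and are not independent of each other. Beyond members and main probe sets, 242 of the genes had another 569 secondary probe sets. Their mean differences had a median of -0.05 with quartiles of -0.22 and 0.04, and 73 (12.8%) were -0.4 or lower. Among the 15838 secondary probe sets of other genes that share was 3.60%. The remaining probe sets of the members' genes were thus more often lower than those elsewhere, although 408 of the 569 lay within 0.2 of 0; this share too comes from the contrast of the rule and carries no test.

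What the members shared beyond the rule was examined through their levels, their probe set classes and their behaviour between arrays. In sham mice their median level was 7.54, above the array median of 5.57 for 307 of 345, and in SPIO mice it was 6.46. For 65 members the sham mean lay above the array median and the SPIO mean below it, and 38 lay below in both arms. Over 60 arrays the members' median level of 7.04 was above that of all secondary probe sets, 5.54, and their main probe sets, at 9.38, were above all main probe sets of genes with several, at 8.11. These are levels of different probe sets, and they give no relative amount of transcript.

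By probe set class, 262 of the members (75.9%) matched a single transcript sequence (_at), against 74.9% of all secondary probe sets. Another 64 (18.6%) were of the class that matches alternative transcripts of a gene (_a_at), against 11.7%. Probe sets that can match other genes were fewer, with 11 of class _s_at (3.19% against 5.21%) and 8 of class _x_at (2.32% against 8.24%). Accessions were known for both probe sets in 266 pairs, and 62 of those pairs (23.3%) shared the accession, against 23.1% over all secondary probe sets. Numbers next to that of the main probe set were held by 36 members (10.4% against 10.8%). In 29 of these 36 (80.6%) the member had the higher number, as in Apc, Slmap, Smc1a, Plxnc1, Gemin5 and Heatr6, while over all 1814 such pairs of the array the secondary probe set had the higher number in 56.4%. What the order of the numbers stands for was not examined.

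The members moved together from mouse to mouse within groups, which the rule did not use. After each group's mean was subtracted, the correlation of a member with the mean of the other 344 over 60 arrays had a median of 0.81 (quartiles 0.69 and 0.88) and was above 0 for all 345. For the other 16407 secondary probe sets, the correlation with the members' mean had a median of 0.02 (quartiles -0.16 and 0.22), and for the main probe sets of the members' genes 0.10 (quartiles -0.06 and 0.27). With its own main probe set a member correlated at a median of 0.24. The points share arrays and their normalization, and the values are a description. Members also varied more between arrays of a group, with a median SD of 0.36 within groups against 0.15 for their main probe sets and 0.19 for the other secondary probe sets.

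Change over time within an arm rests on the same group means that the rule used, since a member had to be lower at each time, so the members' counts are a description and nothing is read from them. By limma's F-test over the 6 times, 12 of the 345 members (3.48%) differed among times in sham mice, where 27.3% of all probe sets did, and 128 of their 304 main probe sets (42.1%). In SPIO mice 38 members (11.01%) differed among times, where 3.83% of all probe sets did, and 10 main probe sets (3.29%). At an unadjusted p under 0.05 the members numbered 23 in sham and 160 in SPIO mice. The count in SPIO mice changed most when 0 h or 96 h arrays were left out. It was 11, 16, 21, 22 and 15 without arrays 1 to 5 of the 0 h SPIO mice in turn, 23 without array 1 of 168 h, and 65, 23 and 25 without arrays 1, 2 and 3 of 96 h. The count in sham mice was 19 without array 5 of 0 h, 7 without array 4 or array 5 of 24 h, and 51 with array weights.

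The 4 members of each arm with the smallest p in that F-test are given by their group means alone. In SPIO mice those of Tlk1 1439158_at from 0 to 168 h were 7.34, 6.64, 6.37, 6.64, 6.21 and 6.19, with an SD of 0.15 at 0 h and 0.38 at 168 h. Heatr6 1424687_at went from 6.17 at 0 h to 5.10 at 168 h. Washc2 1433589_at, of the WASH complex that sorts endosomes, went from 8.19 to 7.24, and Spred1 1423162_s_at, a relative of Spred2, from 8.48 to 7.70. The SPIO means of these 4 were higher at 0 h than at 168 h. In sham mice Klhl24 1436968_x_at had its highest mean at 24 h, 8.46 against 7.36 at 0 h and 6.99 at 96 h. Slc5a3 1440227_at, a myo-inositol transporter probe set, was also highest at 24 h, at 7.82. Tef 1438033_at, a transcription factor driven by the circadian clock, was lowest at 6 h, 7.47 against 8.28 at 0 h and 8.65 at 24 h. Zfp568 1459929_at ran from 5.98 at 0 h to 5.39 at 48 h.

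Gene lists chosen with earlier results known were read for members and, for the main probe sets, for calls over the mean of the 6 times (10% lower and 15.2% higher over all probe sets). Members made up 2.06% of all secondary probe sets. Nipbl and Smarca5, left out by the rule, were not on the lists. Of the 12 cohesin genes, Smc1a alone held members, 2 of the list's 24 secondary probe sets. Among the main probe sets of that list 2 were lower and 3 higher, with Smc1a at 0.22 (SE 0.03) and Pds5a at -0.44 (SE 0.07). The 17 chromatin remodelling ATPases had 34 secondary probe sets, and 5 of the genes held a member: Atrx (-1.22), Chd6 (-1.0), Smarca2 (-0.93), Ino80 (-0.73) and Ep400 (-0.65). Their main probe sets differed by 0.01, 0.14, -0.04, 0.09 and 0.14. Of that list's main probe sets 2 were lower and 5 higher, with Chd4 at -0.80 (SE 0.10) and Smarca4 at 0.15 (SE 0.03). The remodelling ATPases thus included genes read lower by the secondary probe set alone and, in Chd4, a gene read lower by its main probe set.

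Among 17 measured histone lysine methyltransferases and demethylases, Kmt2e and Nsd1 held a member each (-0.73 and -0.69), 4 main probe sets were lower and 4 higher, with Kdm5b at -0.42 (SE 0.06) and Kdm3b at 0.19 (SE 0.03). Among 15 cleavage and polyadenylation factors, Wdr33 (-1.07) and Pcf11 (-1.03) held a member each, 3 main probe sets were lower and 4 higher, with Papola, the poly-A polymerase, at -0.25 (SE 0.03) and Cpsf1 at 0.22 (SE 0.04). Of 7 measured nonsense-mediated decay factors, Smg6 held a member (-1.15) beside a main probe set at 0.26 (SE 0.03), and 4 main probe sets were higher and 0 lower, with Smg5 at 0.17 (SE 0.03). The 16 measured SR proteins and CLK kinases held no member, and 4 main probe sets were lower and 3 higher, with Srsf9 at 0.15 (SE 0.02) and Tra2b at -0.17 (SE 0.03). Of 5 nuclear noncoding RNAs only Malat1 held members, and its main probe set was the only one called, lower, while Miat differed by 0.12 (SE 0.06). The 5 lists from the methyltransferases and demethylases on had 38, 38, 7, 39 and 23 secondary probe sets in turn, of which 2, 2, 1, 0 and 2 were members. These shares were not tested. Over the 7 lists, the median mean difference of the main probe sets lay between -0.04 and 0.10. Symbols beginning with Zfp, a group chosen after the values were seen, made up 10 members (2.90%) against 1.72% of all secondary probe sets.

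Among 12 lists of cell type markers, with 33 measured genes in all, no list had more than 3 secondary probe sets. The cardiac muscle list alone held a member. It was Myh6 1417729_at, the cardiac myosin heavy chain, at -0.83 (SE 0.21). Its sham mean of 3.71 was the lowest of all members, and its main probe set, at 9.77 in sham and 9.53 in SPIO mice, differed by -0.24 (SE 0.72). The mean over the 4 cardiac genes ran from 5.90 to 12.003 in sham arrays and from 5.90 to 11.3 in SPIO arrays, a wide spread in both arms. The B cell genes were called higher, all 3 of 3, with Bank1 at 0.83 (SE 0.16). The only other marker called was Pecam1 of endothelial cells, at 0.14 (SE 0.04). The part of cell type makeup in the members' differences was not tested.

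Control probe sets, which were left out of the fit, differed between the arms in the same arrays. Poly-A control RNAs (Dap, Lys, Phe and Thr) are bacterial transcripts mixed into the sample RNA before labelling. The mean of their 12 probe sets was higher in SPIO than in sham arrays at all 6 times, by 0.49, 1.06, 1.05, 1.49, 0.91 and 1.10 from 0 to 168 h in turn. From 6 h on all 5 SPIO arrays were above all 5 sham arrays (two-sided exact permutation test, p = 0.00794, the smallest that 5 against 5 can give, adjusted p = 0.019 over 12 tests). At 0 h the groups overlapped (exact permutation p = 0.0317, adjusted p = 0.0476) through sham array 1 alone, the one with high Xist and Alb, at 8.27 against 7.43 to 7.71 on the other 4. Without it and array 3 of the 24 h SPIO mice, a choice made after seeing the data, the difference was 0.63 at 0 h and 1.14 at 24 h, with no overlap at either time (two-sided exact permutation p = 0.0159, the smallest that 5 against 4 can give, adjusted p = 0.0317). The hybridization controls, which are added after labelling, differed by 0.30 at 24 h (exact permutation p = 0.0317, adjusted p = 0.0476), by 0.31 at 48 h (exact permutation p = 0.0238, adjusted p = 0.0476), and by 0.07 at most at 0, 6, 96 and 168 h. The labels name no labelling batch or scan date, so no value within a batch could be given.

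Controls placed along single transcripts differed by position. Tfrc, the transferrin receptor that takes up iron, has 3 of them. Its 3′ control differed by between -0.32 and 0.04 at single times, a mean of -0.07, its middle control by between -0.65 and -0.38, and its 5′ control by between -0.84 and -0.59. All 3 read low, below the array median of 5.57. Their means in sham and SPIO arrays were 4.58 and 4.51 (3′), 4.17 and 3.65 (middle), and 4.40 and 3.69 (5′). Differences between these Tfrc controls are thus near the background. The 3′ minus 5′ difference averaged 0.18 in sham and 0.82 in SPIO arrays and was higher in SPIO mice at all 6 times, by 0.52, 0.58, 0.80, 0.59, 0.75 and 0.59 from 0 to 168 h in turn. Its arrays of the arms overlapped at 0, 48, 96 and 168 h. Tfrc also held a member, 1422967_a_at, at -1.10 (SE 0.13), whose neighbour 1422966_a_at differed by -0.10 (SE 0.04) and whose main probe set 1452661_at differed by -0.04 (SE 0.05). For β-actin the 3′ minus 5′ difference averaged 0.64 in sham and 0.83 in SPIO arrays, and for Gapdh 0.34 and 0.49. At single times the arms differed in it by between 0.05 and 0.31 for β-actin and between 0.05 and 0.28 for Gapdh. Arrays of the arms overlapped at 0 and 24 h for β-actin, and at every time but 6 h for Gapdh. By group means alone, each of the 3 transcripts thus read less at the 5′ side, relative to the 3′ side, in SPIO mice at every time. The part of these controls in the members' differences was not tested.

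Within an arm, the mean over members was set against 6 other measures per array, 12 relations in all, after group means were subtracted (30 arrays in groups of 5, permutation tests with 100000 resamples, two-sided). In sham mice it was lower where the Tfrc 3′ minus 5′ difference was higher (Pearson r = -0.55, p = 0.0018, adjusted p = 0.022; Spearman rho = -0.55, p = 0.0019, adjusted p = 0.019), and r was -0.55 without the 2 farthest arrays. In SPIO mice that relation did not pass (r = -0.35, permutation p = 0.059, adjusted p = 0.10; rho = -0.33, p = 0.074, adjusted p = 0.13), and r was -0.24 without the 2 farthest arrays. With the poly-A controls the relation ran the other way than between the arms. It was positive in sham mice (r = 0.44, permutation p = 0.014, adjusted p = 0.042; rho = 0.44, p = 0.015, adjusted p = 0.035; r = 0.54 without the 2 farthest arrays) and in SPIO mice (r = 0.39, permutation p = 0.031, adjusted p = 0.074; rho = 0.45, p = 0.013, adjusted p = 0.035; r = 0.57 without the 2 farthest arrays). Pearson's r in SPIO mice did not pass the adjustment. Within groups, more poly-A control signal thus went with more member signal, while the SPIO arm as a whole had more of the first and less of the second. With the hybridization controls in sham mice, r was 0.36 (permutation p = 0.048, adjusted p = 0.097) and rho 0.45 (p = 0.014, adjusted p = 0.035). The β-actin 3′ minus 5′ difference in SPIO mice gave r = -0.47 (permutation p = 0.0086, adjusted p = 0.034) but rho = -0.24 (p = 0.20, adjusted p = 0.30), and r was -0.15 without the 2 farthest arrays, so it rested on those. The mean over main probe sets went with that over members in SPIO mice (r = 0.50, permutation p = 0.0044, adjusted p = 0.026; rho = 0.52, p = 0.0032, adjusted p = 0.019; r = 0.40 without the 2 farthest arrays), and in sham mice its r of 0.24 did not pass (permutation p = 0.20, adjusted p = 0.27). The other 4 relations did not pass by either measure. In sham mice they were those with the 3′ minus 5′ difference of β-actin (r = 0.01, rho = 0.08) and of Gapdh (r = -0.04, rho = -0.13). Of the 3 transcripts, the dim Tfrc controls alone thus gave a relation in sham mice. In SPIO mice they were those with the Gapdh difference (r = -0.24, rho = 0.01) and the hybridization controls (r = 0.23, rho = 0.21).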

How the data were processed

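The authors hybridized lung RNA of 60 mice (12 groups of 5) to Affymetrix mouse genome arrays and deposited log2 values made by RMA, which corrects background, quantile normalizes and summarises probes; the sources used here do not give its version. Labels tied each of the 60 columns to 1 sample. RMA compresses low intensities, so a fold of a dim probe set can be understated; precision is limited by how many arrays there are.

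Fits used 45037 of the 45101 probe sets, without 64 controls. Genes were named from the platform's annotation (34945 probe sets with 1 symbol, 932 with several, 9160 with none), and all 345 members matched a current gene ID. Arms were compared in R 4.3.3 with limma 3.58.1, with all 12 groups in the same model (residual degrees of freedom 48) and p-values adjusted by Benjamini-Hochberg over all probe sets, at 0.05. F-tests over the 6 times were made within each arm. The members and lists were chosen with earlier results of these data known. Named members are the 30 with the lowest mean difference, those with the 4 largest and 4 smallest gaps, those at the cut, the 4 with the smallest p in each arm's F-test, and 2 genes of each list described. The mention of other genes followed the values. Alternatives were a single-symbol table, a low-value filter, array weights, trend with robust moderation, the replicate block, quantile normalization, median centring, single-time fits, the methods' test, a fold minimum, other cuts and main probe sets, and leaving out each array. Leaving out the 2 arrays that stand apart and the tests of control probe sets were added after seeing the data. Scripts were tested on simulated data. Summaries were made in Python 3.11.15.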

Additional observations from a re-analysis of the deposited data

Results flagged for a closer look

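A sample far from the other 4 of its group was looked for in 9 measures over 12 groups, 108 tests, of which chance flags about 1 in 20; 8 were found. The mean over the 345 members was 6.97 in array 5 of the 0 h sham controls against 7.61 to 7.77 in the other 4. That array was also apart for Utrn 1426892_at (7.96 against 8.95 to 9.20) and Supt16 1449578_at (6.86 against 7.74 to 7.96). Utrn was low in array 3 of the 96 h sham controls (8.27 against 8.98 to 9.26) and in array 1 of the 168 h SPIO mice (5.50 against 6.46 to 6.81). Ralgapa1 1458685_at was low in array 2 of the 0 h SPIO mice (4.05 against 4.52 to 4.67), and Supt16 in array 5 of the 24 h SPIO mice (4.20 against 5.52 to 6.02). All 7 of these were on the low side. The mean over the main probe sets was 9.27 in array 1 of the 6 h SPIO mice against 9.45 to 9.48.

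The poly-A control probe sets, which no comparison of genes used, were higher in SPIO than in sham arrays by 0.49, 1.06, 1.05, 1.49, 0.91 and 1.10 from 0 to 168 h in turn.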

How the results depend on the processing

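The number of members was 335 after quantile normalization again, 356 after median centring, 328 with main probe sets chosen by sham arrays, and 299 to 409 when single arrays were left out. The median of the main probe sets' mean difference stayed between 0.0002 and 0.0133 when single arrays were left out. All 30 leading members kept their direction in the alternatives run for them (quantile normalization again, median centring and leaving out each array). The main probe sets called lower were fewer with a fold minimum of 1.5: 1, 2, 7, 3, 5 and 4 at 0, 6, 24, 48, 96 and 168 h, and 4 over the mean of the 6 times. With the 10 arrays of a time fitted alone they were 5, 17, 4, 9 and 7 for 0, 24, 48, 96 and 168 h. With array weights they were 21, 16 and 21 for 0, 48 and 168 h, and members that differed among times in sham mice were 51. With the low-value filter they were 17 at 48 h and 21 at 168 h; quantile normalization again gave 14 and 7. The methods' test gave 19 at 24 h. Without the 2 arrays that stand apart, an alternative chosen after seeing the data, 20 were called at 0 h. The causes were not tested.

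Leaving out single arrays gave 5 to 20, 1 to 5, 27 to 40, 1 to 11, 5 to 19 and 2 to 22 main probe sets called lower from 0 to 168 h in turn, and 54 to 63 over the mean of the 6 times. Members that differed among times were 7 to 19 in sham and 11 to 65 in SPIO mice. Arrays that moved a count of main probe sets by more than 1.5 times were, at 0 h (13 with all arrays), sham arrays 1 (20), 3 (5) and 4 (6) and SPIO arrays 2, 3 and 4 (8 each). At 6 h (4) they were sham arrays 2 and 5 (2 each), 3 and 4 (1 each) and SPIO arrays 1, 3 and 4 (2 each). At 48 h (8) they were sham array 3 (5) and SPIO array 5 (1), and at 96 h (16) sham array 5 (8) and SPIO arrays 2 (10) and 3 (5). At 168 h (13) they were sham arrays 1 (4), 2 and 4 (7 each) and 3 (8) and SPIO arrays 1 (2), 2 (22), 3 and 5 (8 each). The lone counts at these times are therefore loose, while that over the mean of the 6 times was not moved by any single array beyond 54 to 63.

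Groups share the replicate numbers 1 to 5 in the labels. Same-numbered arrays of the 2 arms deviated together with correlations from -0.40 to 0.37 (median -0.02, over 0.1 in 7 of 30). These values gave no sign that the numbers paired the mice, but could not exclude a weak pairing. With the replicate block 61 main probe sets were called lower over the mean of the 6 times, 42 members differed among times in SPIO and 11 in sham mice, and no count moved beyond 1.5 times. Probe sets near background, such as Myh6 1417729_at, are limited by signal rather than by replication.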
